A study of Mus musculus with 9 samples.

Results

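The mouse genes named Gpr followed by digits alone were followed through eosinophil development. The name was given to receptors, or receptor-like proteins, that were found by sequence before a ligand was known. Selection was by gene symbol only, and 89 of the 23471 genes in the RNA tables carried such a name, on 20 chromosomes. Marrow was pooled from Balb/c mice that received no treatment, and 3 cell types were sorted from it. Granulocyte-macrophage progenitors (GMP) were lineage-negative, CD34+, CD16/32+ cells with high c-kit, eosinophil progenitors (EoP) were lineage-negative, CD34+, CD125+ cells with low c-kit, and eosinophils (Eos) were Siglec-F+, CCR3+ cells. Each cell type gave 2 RNA libraries, from separate sorts, and 1 library of chromatin immunoprecipitated for H3K4me3, a histone mark found at active and poised promoters. Whether different animals went into the sorts is not stated, and p-values therefore measure the spread between sorts.

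G protein-coupled receptors span the membrane with a bundle of helices and, when a ligand binds, switch on a heterotrimeric G protein whose alpha and beta-gamma subunits act on adenylyl cyclases, phospholipase C beta, phosphoinositide kinase gamma and guanine nucleotide exchange factors. Receptor kinases and arrestins end the signal, and RGS proteins speed the return of the alpha subunit to its resting state. Granulocytes use such receptors to follow chemoattractants, to sense acid and lipid products of inflamed tissue, and to move between marrow and tissue. The name is not a test of function. By the roles listed here, 4 of the 89 genes encode proton-sensing receptors, 10 receptors for lipids, sterols or metabolites, 5 chemoattractant-like receptors, 16 adhesion receptors with long extracellular parts, 4 P2Y-like orphans, 3 SREB orphans, 3 class C orphans and 3 receptors that raise cyclic AMP without a ligand. A further 7 (Gpr89, Gpr107, Gpr108, Gpr137, Gpr143, Gpr155 and Gpr180) encode proteins that sit on internal membranes or are not classical receptors, and 34 were other class A orphans or unsorted.

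The promoters of 5 genes are shown because the RNA results turn on them: Gpr126, Gpr65 and Gpr132, which were higher in Eos, Gpr183, which was higher in EoP, and Gpr97, the gene of highest level in GMP. Each sequence is the 250 bases before the transcription start on the gene's own strand, from RefSeq on GRCm38.p6, and each ends at the base before the start listed in the RNA tables. The windows are chr10:14545037-14545286 (minus strand), chr12:98268385-98268634 (plus), chr12:112860917-112861166 (minus), chr14:121965194-121965443 (minus) and chr8:95017442-95017691 (plus). Capitals mark matches to the motifs searched, on either strand.
Gpr126: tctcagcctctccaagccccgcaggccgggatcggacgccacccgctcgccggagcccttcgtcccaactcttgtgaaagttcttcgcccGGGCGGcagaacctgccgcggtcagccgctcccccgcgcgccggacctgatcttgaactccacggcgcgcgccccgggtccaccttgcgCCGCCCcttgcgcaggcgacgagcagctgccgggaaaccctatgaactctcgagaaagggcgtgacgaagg
Gpr65: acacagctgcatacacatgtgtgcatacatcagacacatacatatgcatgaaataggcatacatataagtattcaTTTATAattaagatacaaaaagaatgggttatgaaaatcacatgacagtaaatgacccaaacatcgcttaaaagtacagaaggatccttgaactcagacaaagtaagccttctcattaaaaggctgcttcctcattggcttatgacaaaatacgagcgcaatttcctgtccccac
Gpr132: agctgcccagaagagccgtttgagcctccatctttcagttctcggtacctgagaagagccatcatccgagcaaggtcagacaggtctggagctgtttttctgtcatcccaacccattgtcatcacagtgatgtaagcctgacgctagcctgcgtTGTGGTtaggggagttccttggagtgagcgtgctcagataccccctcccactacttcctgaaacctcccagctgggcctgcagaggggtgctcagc
Gpr183: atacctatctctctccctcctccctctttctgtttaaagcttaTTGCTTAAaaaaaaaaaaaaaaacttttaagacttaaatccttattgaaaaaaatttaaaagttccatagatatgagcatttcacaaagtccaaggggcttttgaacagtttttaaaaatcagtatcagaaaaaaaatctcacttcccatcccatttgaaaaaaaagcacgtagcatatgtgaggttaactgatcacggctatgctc
Gpr97: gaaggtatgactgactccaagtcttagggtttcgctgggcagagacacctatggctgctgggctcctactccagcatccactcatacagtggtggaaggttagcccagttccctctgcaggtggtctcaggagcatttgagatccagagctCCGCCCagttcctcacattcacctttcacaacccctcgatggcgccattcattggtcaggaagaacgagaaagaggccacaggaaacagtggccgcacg

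The searched motifs were AGATAA (for factors of the GATA family), its variant TGATAA (which differs in its first base and so cannot match at the same place), GAGGAAGT (PU.1), CCGGAAGT (ETS factors), TTGCNNAA (C/EBP), TGTGGT (RUNX), GGGCGG (the GC box), TATAAA (the TATA box) and TGACGTCA (the cyclic AMP response element). The search covered 300 bases, 250 before and 50 after the start, and 64 of the 89 genes had such a window. Gpr126 stood apart in base composition, with 38 CpG dinucleotides and 2 GC boxes in its window, whereas the other windows shown held 3 CpG (Gpr65), 7 (Gpr132), 4 (Gpr183) and 7 (Gpr97). Gpr97 held 1 GC box, Gpr132 1 TGTGGT, Gpr183 1 TTGCNNAA and Gpr65 1 TATAAA. None of these 5 windows held either GATA motif, the PU.1 or ETS motif or the cyclic AMP response element. Over the Gpr-named genes the shares were close to those of all 32851 windows for most motifs: GGGCGG was in 42.2% against 35.7%, TGTGGT in 25.0% against 16.8%, TATAAA in 12.5% against 13.6%, AGATAA in 9.38% against 11.2%, TTGCNNAA in 7.81% against 10.8%, and TGATAA in 3.12% against 9.05%. GAGGAAGT was in 3.12% against 3.20%, CCGGAAGT in 3.12% against 3.89% and TGACGTCA in 1.56% against 1.79%. A match describes letters and is not a bound site.

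Most of these genes had little RNA in any of the cell types, and a few held most of what there was. GMP had a count for more of them than the later stages did. At least 1 count was present for 78 and 85 of the 89 genes in the GMP libraries (87.6% and 95.5%), for 50 and 54 in EoP (56.2% and 60.7%) and for 59 and 65 in Eos (66.3% and 73.0%). The same shares over all genes were 83.8% and 87.5% in GMP, 61.1% and 63.8% in EoP and 67.8% and 70.3% in Eos, so the lower share in EoP held for all genes too. Depth ran the other way, since the GMP libraries held 6576661 and 5226653 counts, the EoP libraries 9628492 and 12088134, and the Eos libraries 10940000 and 10790618. Gpr135, an orphan, had no count in any library, and 13 genes had counts in GMP and none in EoP or Eos. A mean of at least 10 CPM (a gene's count over the library's total, scaled by TMM factors) was reached by 16 genes in GMP, 16 in EoP and 16 in Eos, and by 21 genes in at least 1 cell type. In bulk samples, fewer cells that express a gene and less RNA per cell cannot be told apart.

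**Figure D1:**
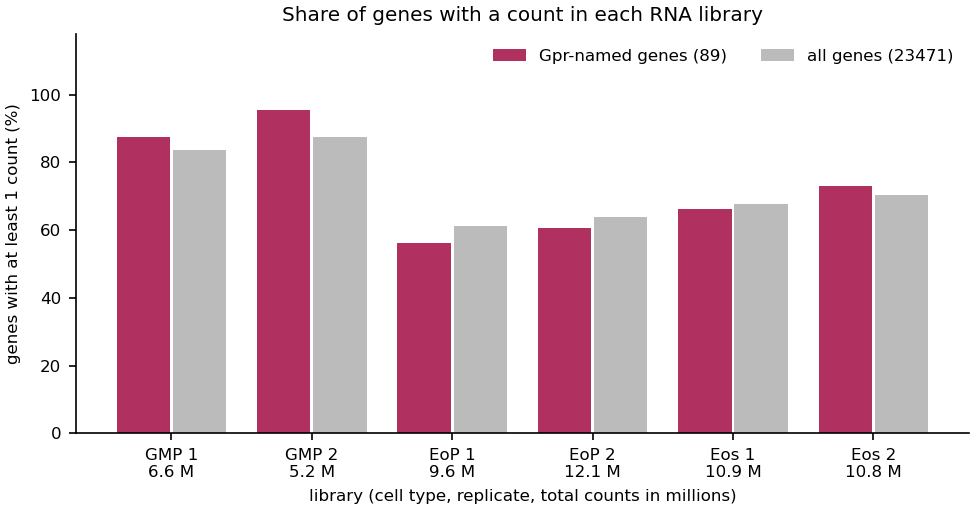
Percentage of genes with at least 1 count (vertical axis) in each of the 6 RNA libraries, for the 89 Gpr-named genes (red bars) and all 23471 genes (grey bars), with total counts under each pair. Both bars are highest in GMP (87.6% and 95.5% of Gpr-named genes) and lowest in EoP (56.2% and 60.7%).

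Levels of different genes were compared as RPKM, which divides by transcript length. Gpr97, an adhesion receptor of granulocytes, had the highest level in GMP, 44.8 ± 3.14 RPKM (SD, n = 2), and in EoP, 29.0 ± 6.91 RPKM. The gene second in both was Gpr160, an orphan, at 16.4 ± 2.48 RPKM in GMP and 23.1 ± 3.81 RPKM in EoP, and in EoP the SDs of Gpr97 and Gpr160 met. In GMP Gpr56 (7.56 ± 0.657 RPKM), Gpr108 (7.45 ± 0.169) and Gpr65 (6.94 ± 1.40) followed, within their spread of each other. In EoP Gpr183 (13.2 ± 2.99 RPKM) and Gpr108 (9.65 ± 0.177) came next. In Eos the order changed: Gpr65 led at 35.2 ± 17.1 RPKM, before Gpr97 at 18.2 ± 10.7, Gpr132 at 12.4 ± 0.464, Gpr18 at 11.1 ± 1.57 and Gpr108 at 7.87 ± 1.64. The range of Gpr97 within 1 SD met those of Gpr65, Gpr132, Gpr18 and Gpr108, and the ranges of Gpr132 and Gpr18 met each other. Summed RPKM over all 89 genes lay close together, at 136 and 117 in GMP, 128 and 139 in EoP, and 140 and 140 in Eos.

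The tables gave 3 comparisons, the steps of EoP against GMP and Eos against EoP, and the whole course of Eos against GMP. A gene was called at an adjusted p under 0.05 in edgeR's quasi-likelihood test over 14324 genes, and 63 of the 89 Gpr-named genes passed the filter on low counts. The 26 others had at most 44 counts in any library. In EoP against GMP, 3 genes rose and 22 fell (background called, 26.6% of all genes: 9.49% higher and 17.1% lower). These 63 genes had a median log2 fold change of -0.85, against -0.07 over all genes, and -0.86 with genes at 0 counts set to their bound. In Eos against EoP, 13 rose and 8 fell (background 36.8%: 19.1% higher and 17.7% lower), with a median of 0.61 against 0.02 (0.60 at the bound). In Eos against GMP, 16 rose and 26 fell (background 54.5%: 22.7% higher and 31.8% lower), with a median of -1.29 against -0.39. The last median of all genes moved with the scaling and stayed below 0 in each tried: it was -0.30 with RLE factors, -0.62 with upper quartile factors and -0.97 by library size alone, the last with 10 Gpr-named genes higher and 30 lower. The comparisons share libraries, so their counts are not independent.

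The falls in EoP came mainly from genes of low level. The filter asked for at least 0.979 CPM in 2 libraries, and 25 of the 63 genes (39.7%, against 17.6% of all genes tested) met it only through the GMP libraries, so that they could hardly do other than fall. They held 17 of the 22 falls of EoP against GMP and 17 of the 26 of Eos against GMP, so these counts and medians partly restate the filter. Of the 38 genes that met it without GMP, 3 rose and 5 fell in EoP against GMP (13.2% lower, against 7.11% of all such genes), and 16 rose and 9 fell in Eos against GMP (23.7% lower, against 25.9%). Of the 22 genes, 20 averaged under 10 CPM in GMP, 12 had no count in EoP, and 18 had at most 3 counts there. Among the 21 genes of at least 10 CPM in some cell type, 2 rose and 2 fell in EoP against GMP with a median of 0.08, 6 rose and 5 fell in Eos against EoP, and 11 rose and 8 fell in Eos against GMP. No share over all genes of that level is set beside these counts, so they are not compared with a background. The 22 falls dropped to between 3 and 5 when either GMP or either EoP library was left out, and to 3 over genes of at least 50 counts in 2 libraries; the 26 falls of Eos against GMP dropped to 7 without the first and 9 without the second GMP library. The 8 falls of Eos against EoP dropped to 5 without the first EoP library.

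Over both steps, no gene rose at each and none fell at each (3.59% and 0.363% of all genes tested). Gpr183 rose in EoP and was not called thereafter (1.59% of the 63 genes, against 3.83% of all genes). Another 2 genes, Gpr85 among them, rose in EoP and fell in Eos (3.17% against 2.07%). Gpr84, Gpr55 and Gpr98 fell in EoP and rose in Eos (4.76% against 3.6%). A further 19 fell at the first step and were not called at the second (30.2% against 13.2%). Of the 22 genes that fell at the first step, 17 met the filter only through GMP. The share of 30.2% therefore partly restates the filter. At the second step alone, 10 rose (15.9% against 11.9%) and 6 fell (9.52% against 15.3%). The remaining 22 were called at neither step (34.9% against 46.2%). The change differed between the steps, by a test of that difference, for 16 of the 63 genes (background 19.8%). Of the 10 genes that rose at the second step alone, Gpr21 overlaps Rabgap1 and Gpr52 overlaps Rabgap1l, each on the same strand. Rabgap1 and Rabgap1l were called higher in Eos against EoP too (log2 0.59 and 1.40, edgeR adjusted p = 0.047 and 0.00104). Whether their reads were counted for Gpr21 or Gpr52 was not tested.

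**Figure D2:**
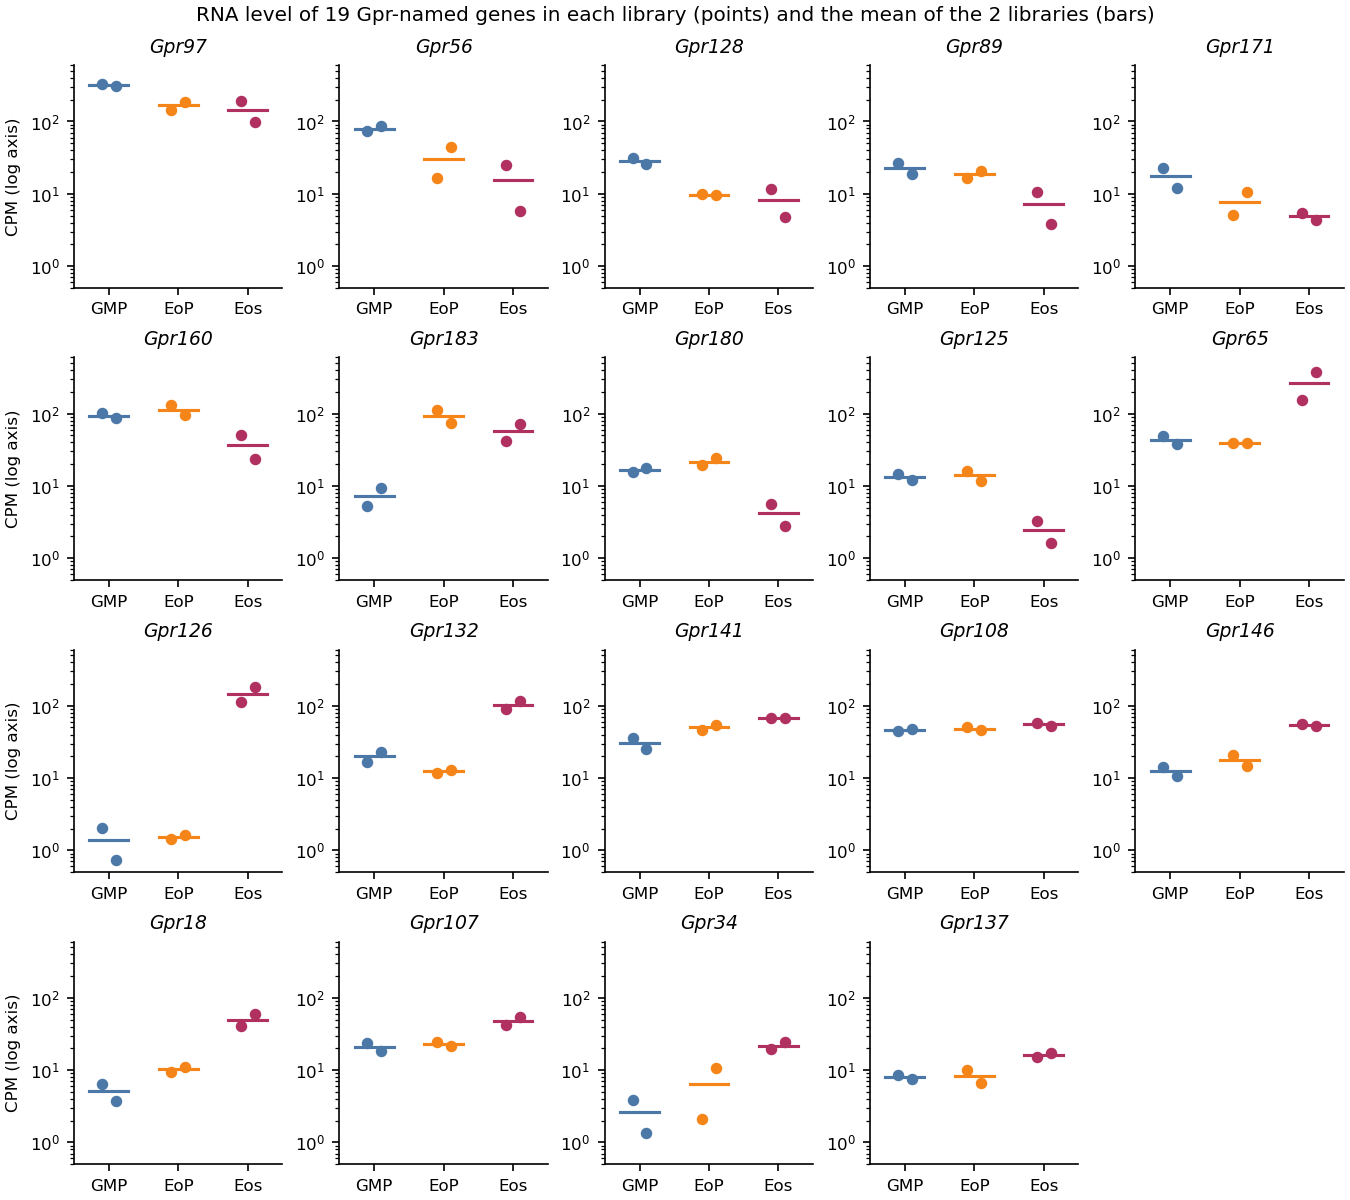
RNA level in CPM (log axis) of 19 Gpr-named genes chosen for level and change, in the order of their highest cell type, with 1 point for each library and a bar at the mean of 2 libraries in GMP (blue), EoP (orange) and Eos (red). Gpr126, Gpr65 and Gpr132 are highest in both Eos libraries, Gpr183 in both EoP libraries, and Gpr97 in both GMP libraries.

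Among the proton-sensing receptors, which carry acid into cyclic AMP and other signals, 2 of the 4 rose in Eos, each against EoP and against GMP (background 19.1% and 22.7% higher). Gpr65, a receptor through which acid raises cyclic AMP and that is known to favour survival of mouse eosinophils in acid, had 49.3 and 38.3 CPM in GMP, 39.3 and 38.8 CPM in EoP and 153 and 380 CPM in Eos. Both Eos libraries were above all 4 others, though they differed from each other more than the others did. The log2 fold change was 2.77 ± 0.38 (SE) in Eos against EoP (adjusted p = 0.000666) and 2.6 ± 0.38 in Eos against GMP (adjusted p = 0.000557). Gpr132, which answers to oxidised fatty acids and lysophospholipids and is only weakly pH-dependent, had 16.7 and 23.2 CPM in GMP, 11.6 and 13.1 CPM in EoP and 90.4 and 116 CPM in Eos. Its Eos libraries did not overlap any other, and it rose by a log2 of 3.06 ± 0.27 in Eos against EoP (adjusted p = 5.39e-05) and 2.37 ± 0.26 in Eos against GMP (adjusted p = 0.000101). Gpr4, another proton sensor, lay at 0.935 to 4.72 CPM in every library and was not called in any comparison.

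Of the 8 lipid, sterol and metabolite receptors tested, 1 rose and 3 fell in EoP against GMP (background 9.49% higher and 17.1% lower) and 4 were not called. In Eos against EoP 3 rose, 0 fell and 5 were not called (background 19.1% higher and 17.7% lower), and in Eos against GMP 4 rose and 0 fell (background 22.7% and 31.8%). Gpr183, also known as EBI2, guides B cells and dendritic cells along gradients of dihydroxylated oxysterols. It had 5.2 and 9.24 CPM in GMP, 113 and 74.7 CPM in EoP and 42.3 and 72.7 CPM in Eos, so both later stages were above GMP. The rise in EoP was a log2 of 3.71 ± 0.39 (adjusted p = 0.000283), or 13.1-fold, and Eos remained above GMP by 3.0 ± 0.38 (adjusted p = 0.000229). Between Eos and EoP its log2 difference of -0.70 ± 0.34 was not called (adjusted p = 0.127), and the 2 steps differed by -4.41 ± 0.58 (adjusted p = 0.00112). Of the enzymes that make or remove its ligand, Ch25h had no count in any library, Cyp7b1 reached 0.149 CPM in 1 GMP library only, and Hsd3b7, which breaks the ligand down, rose in Eos against GMP by 0.94 ± 0.28 (adjusted p = 0.019). Cyp27a1, which makes another oxysterol, fell in EoP against GMP by 2.82 ± 0.66 on the log2 scale (adjusted p = 0.0135) and rose in Eos against EoP by 1.92 ± 0.66 (adjusted p = 0.0452). It was at 4.84 and 4.47 CPM in GMP, 0.708 and 0.6 CPM in EoP and 3.21 and 1.75 CPM in Eos, and Eos against GMP was not called (adjusted p = 0.214).

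Gpr18, a receptor proposed to bind N-arachidonyl glycine and resolvin lipids, lies near Gpr183 on chromosome 14. Both are on the minus strand, and their gene ends, not their starts, lie 40897 bases apart. Gpr18 was called higher at the second step. It had 6.41 and 3.72 CPM in GMP, 9.43 and 11.1 CPM in EoP and 40.2 and 59.8 CPM in Eos. No libraries of different cell types overlapped, and it rose by 2.27 ± 0.33 in Eos against EoP (adjusted p = 0.000869) and by 3.28 ± 0.36 in Eos against GMP (adjusted p = 9.14e-05). In EoP against GMP the difference of 1.01 ± 0.35 was not called (adjusted p = 0.0582), and over the alternatives its adjusted p ran between 0.0155 and 0.267. That difference was called with no filter (0.0155), with limma on log2(RPKM + 0.5) (0.0257) and log2(RPKM + 0.1) (0.0294), and without either Eos library (0.0203 and 0.0277). The steps were not shown to differ for Gpr18, at 1.27 ± 0.59 (adjusted p = 0.151). Gpr18 and Gpr183 both lie within Ubac2, on the opposite strand, which had 24.5 to 42.3 CPM in the 6 libraries and was called in no comparison. Whether the counting used strand is not stated.

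Gpr34, a lysophosphatidylserine receptor, had 3.87 and 1.34 CPM in GMP, 2.12 and 10.6 CPM in EoP and 19.3 and 24.3 CPM in Eos. The EoP libraries were far apart and one lay within the GMP range, and only Eos against GMP was called, at 3.03 ± 0.71 (adjusted p = 0.00627). Gpr34 lies within Cask on the opposite strand; Cask rose in Eos against EoP by 1.32 (adjusted p = 0.00376) and was not called in Eos against GMP. Gpr84, a receptor for medium-chain fatty acids, and Gpr55, a receptor for lysophosphatidylinositol, were singled out after their values were seen because they were lowest in EoP. Gpr84 had 12 and 6.11 CPM in GMP, 0.943 and 0.600 CPM in EoP and 11.9 and 6.90 CPM in Eos. It fell in EoP against GMP (log2 -3.56 ± 0.60, adjusted p = 0.00378) and rose in Eos against EoP (3.62 ± 0.60, adjusted p = 0.00162). Gpr55 had 1.82 and 3.58 CPM in GMP, no count in EoP, and 7.83 and 9.59 CPM in Eos. Against a floor of 3 counts over the EoP libraries, EoP was at least 17.5-fold lower than GMP, and Eos at least 58.0-fold higher than EoP. Gpr55 also rose in Eos against GMP, by 1.70 ± 0.57 (adjusted p = 0.0323), a call lost without the first GMP or the second Eos library.

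Of the 5 chemoattractant-like receptors, Gpr44 rose in Eos and the other 4 fell in Eos against GMP, all at under 5 CPM (background 22.7% higher and 31.8% lower). Each passed the filter on low counts only through the cell type where it was highest, Eos for Gpr44 and GMP for the other 4. Their directions therefore partly restate the filter. Of all genes that passed only through GMP, 59.4% fell in Eos against GMP. Of those that passed only through Eos, 41.6% rose. Gpr44, the prostaglandin D receptor also called CRTH2 and known on eosinophils, had no count in GMP, 0.118 CPM in the first EoP library and none in the second, and 3.11 and 2.69 CPM in Eos. Eos was at least 14.6-fold higher than GMP, and its ratio to EoP was 58.8 with a 95% counting interval of 10.1 to 2364. The call against EoP was lost without the second EoP library (adjusted p = 0.0509). Gpr1, a chemerin-binding receptor, and Gpr33 had no count in EoP or Eos, so that Eos was at least 7.42-fold lower (Gpr1) and at least 12.8-fold lower (Gpr33) than GMP, while Gpr15, a homing receptor of gut lymphocytes, was at 0.943 to 4.02 CPM in GMP and EoP and at most 0.402 CPM in Eos. Gpr25 was at 1.69 and 2.98 CPM in GMP and at most 0.857 CPM in later stages. These falls in Eos against GMP were not stable to leaving out a library: the call was lost for Gpr25 in 4 of 6 fits (highest adjusted p = 0.251), for Gpr15 and Gpr33 without the second GMP library (adjusted p = 0.0808 and 0.0579) and for Gpr1 without the second Eos library (adjusted p = 0.0507).

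The adhesion receptors held the largest rise among genes of at least 10 CPM, and also falls. Of the 13 tested, 1 rose and 6 fell in EoP against GMP (46.2% lower, background 17.1%), and 2 rose and 7 fell in Eos against GMP (53.8% lower, background 31.8%). In Eos against EoP 2 rose and 3 fell (15.4% and 23.1%), shares near the background of 19.1% and 17.7%. Gpr126, also named Adgrg6 and known for its part in the myelination of nerves by Schwann cells, had 2.06 and 0.745 CPM in GMP, 1.42 and 1.63 CPM in EoP and 112 and 182 CPM in Eos. Both Eos libraries stood far above the other 4, and GMP and EoP overlapped. The log2 fold change was 6.57 ± 0.43 in Eos against EoP (95.2-fold, adjusted p = 1.41e-05) and 6.66 ± 0.44 in Eos against GMP (101-fold, adjusted p = 5.29e-06). With any library left out, the first stayed between 6.18 and 6.86 and the second between 6.29 and 7.6. Its gene lies at chr10:14402585-14545036 (mm10) on the minus strand and overlaps no other listed gene.

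Gpr97 and Gpr56 (Adgrg3 and Adgrg1) are neighbours on chromosome 8, with starts 40583 bases apart. Gpr97 had 331 and 311 CPM in GMP, 146 and 189 CPM in EoP and 193 and 97.4 CPM in Eos. Both later stages were below GMP and overlapped each other. It fell in EoP against GMP by a log2 of -0.94 ± 0.31 (adjusted p = 0.0484) and in Eos against GMP by -1.14 ± 0.31 (adjusted p = 0.0122), and the first call was lost without any single GMP or EoP library and the second without either GMP library. Gpr56, a receptor of stem and progenitor cells, had 73.2 and 85.7 CPM in GMP, 16.5 and 44.0 CPM in EoP and 25.4 and 5.85 CPM in Eos. Only Eos against GMP was called (log2 -2.34 ± 0.60, adjusted p = 0.00942), and not without the second GMP library.

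Other adhesion receptors fell as well. Gpr128 had 31.5 and 25.6 CPM in GMP, 9.79 and 9.51 CPM in EoP and 11.8 and 4.79 CPM in Eos; it fell in EoP against GMP (log2 -1.56 ± 0.41, adjusted p = 0.0193), a call lost without any single GMP or EoP library, and in Eos against GMP (-1.77 ± 0.41, adjusted p = 0.00604). Gpr125 had 14.6 and 12.2 CPM in GMP, 16.3 and 11.8 CPM in EoP and 3.31 and 1.64 CPM in Eos, with only the progenitors overlapping. It fell by a log2 of -2.48 ± 0.44 in Eos against EoP (adjusted p = 0.00235) and -2.42 ± 0.45 in Eos against GMP (adjusted p = 0.00193). Gpr133, chosen after its values were seen, had 8.96 and 6.26 CPM in GMP, 3.89 and 4.46 CPM in EoP and 0.703 and 0.585 CPM in Eos, and fell in Eos against EoP (log2 -2.67 ± 0.58, adjusted p = 0.00586). Gpr98, the very large receptor of hair cells, also chosen so, had 3.87 and 5.07 CPM in GMP, 0.118 and 0.0857 CPM in EoP and 0.904 and 1.99 CPM in Eos. From 2 counts in EoP, its ratio of GMP over EoP was 44.4 (95% counting interval 11.8 to 374) and of Eos over EoP 14.1 (3.54 to 123), with the call of Eos against EoP lost without either EoP or the second Eos library. Gpr98 passed the filter on low counts only through GMP, so its fall in EoP partly restates the filter.

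Among orphans, Gpr160 had 101 and 85.7 CPM in GMP, 131 and 94.4 CPM in EoP and 50.9 and 23.4 CPM in Eos. Both Eos libraries were below the other 4, with a log2 of -1.60 ± 0.34 in Eos against EoP (adjusted p = 0.00589) and -1.33 ± 0.34 in Eos against GMP (adjusted p = 0.00968), a call lost without either GMP library. Gpr146, a proposed C-peptide receptor, had 14.3 and 10.6 CPM in GMP, 20.5 and 14.6 CPM in EoP and 55.5 and 52.6 CPM in Eos. It rose in Eos against EoP (1.63 ± 0.27, adjusted p = 0.00172) and in Eos against GMP (2.12 ± 0.28, adjusted p = 0.000297). It overlaps 3110082I17Rik on the opposite strand, which fell in Eos against GMP (log2 -2.52, adjusted p = 0.00246). Gpr141, an orphan, had 35.6 and 25.5 CPM in GMP, 46.3 and 53.9 CPM in EoP and 68.0 and 67.2 CPM in Eos, and rose in Eos against GMP by 1.14 ± 0.24 (adjusted p = 0.00375). Gpr171, a receptor for the neuropeptide BigLEN, had 22.8 and 12.1 CPM in GMP, 5.07 and 10.5 CPM in EoP and 5.42 and 4.33 CPM in Eos, and fell in Eos against GMP (log2 -1.83 ± 0.48, adjusted p = 0.0101), but not without the first GMP library. Gpr85, of the SREB orphans, chosen after its values were seen, had 0.484 and 0.149 CPM in GMP, 8.61 and 6.0 CPM in EoP and 0.502 and 0.234 CPM in Eos. It rose in EoP against GMP (4.41 ± 0.77, adjusted p = 0.00436) and fell in Eos against EoP (log2 -4.23 ± 0.74, adjusted p = 0.00209). Gpr85 passed the filter on low counts only through EoP, so its rise and fall partly restate the filter. Of all genes that passed only through EoP, 10.3% rose in EoP against GMP and 24.5% fell in Eos against EoP.

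The 7 genes for internal or non-classical proteins split evenly at the second step, with 2 rises and 2 falls in Eos against EoP (28.6% each, background 19.1% higher and 17.7% lower). Gpr107, a Golgi membrane protein, had 24.0 and 18.2 CPM in GMP, 24.3 and 21.6 CPM in EoP and 42.3 and 54.5 CPM in Eos, and rose in both comparisons with Eos (1.08 ± 0.26 against EoP, adjusted p = 0.00925, and 1.20 ± 0.26 against GMP, adjusted p = 0.00432), the first lost without either EoP library and on RPKM. Its paralogue Gpr108 was at 44.4 to 58.1 CPM in all 6 libraries and was not called in any comparison. Gpr180 had 15.4 and 17.7 CPM in GMP, 19.2 and 24.0 CPM in EoP and 5.62 and 2.81 CPM in Eos, and fell in Eos against EoP (log2 -2.35 ± 0.39, adjusted p = 0.00164) and against GMP (-1.96 ± 0.39, adjusted p = 0.0029). Gpr89, a regulator of Golgi pH, had 26.6 and 18.9 CPM in GMP, 16.5 and 20.7 CPM in EoP and 10.5 and 3.86 CPM in Eos. Eos was below the other cell types (log2 -1.36 ± 0.44 against EoP, adjusted p = 0.0351, and -1.65 ± 0.44 against GMP, adjusted p = 0.0115), but the first call was lost in 5 of the 6 fits that left out a library and the second without the first GMP library. Gpr137, a lysosomal protein, rose in Eos against GMP (1.01 ± 0.36, adjusted p = 0.0375), with 15.0 and 17.5 CPM in Eos and 8.47 and 7.6 CPM in GMP. It overlaps Bad on the opposite strand, which rose as well (0.86, adjusted p = 0.0251), and the call was lost without either GMP or the second Eos library. With library size alone, the rises of Gpr107, Gpr137 and Gpr141 in Eos against GMP were not called. Gpr155, a lysosomal cholesterol sensor chosen after its values were seen, had no count in EoP and 4.42 and 1.64 CPM in Eos, at least 21.0-fold higher. Gpr155 passed the filter on low counts only through Eos, so its rise, among the 2 counted above, partly restates the filter. Of all genes that passed only through Eos, 50.9% rose in Eos against EoP.

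**Figure D3:**
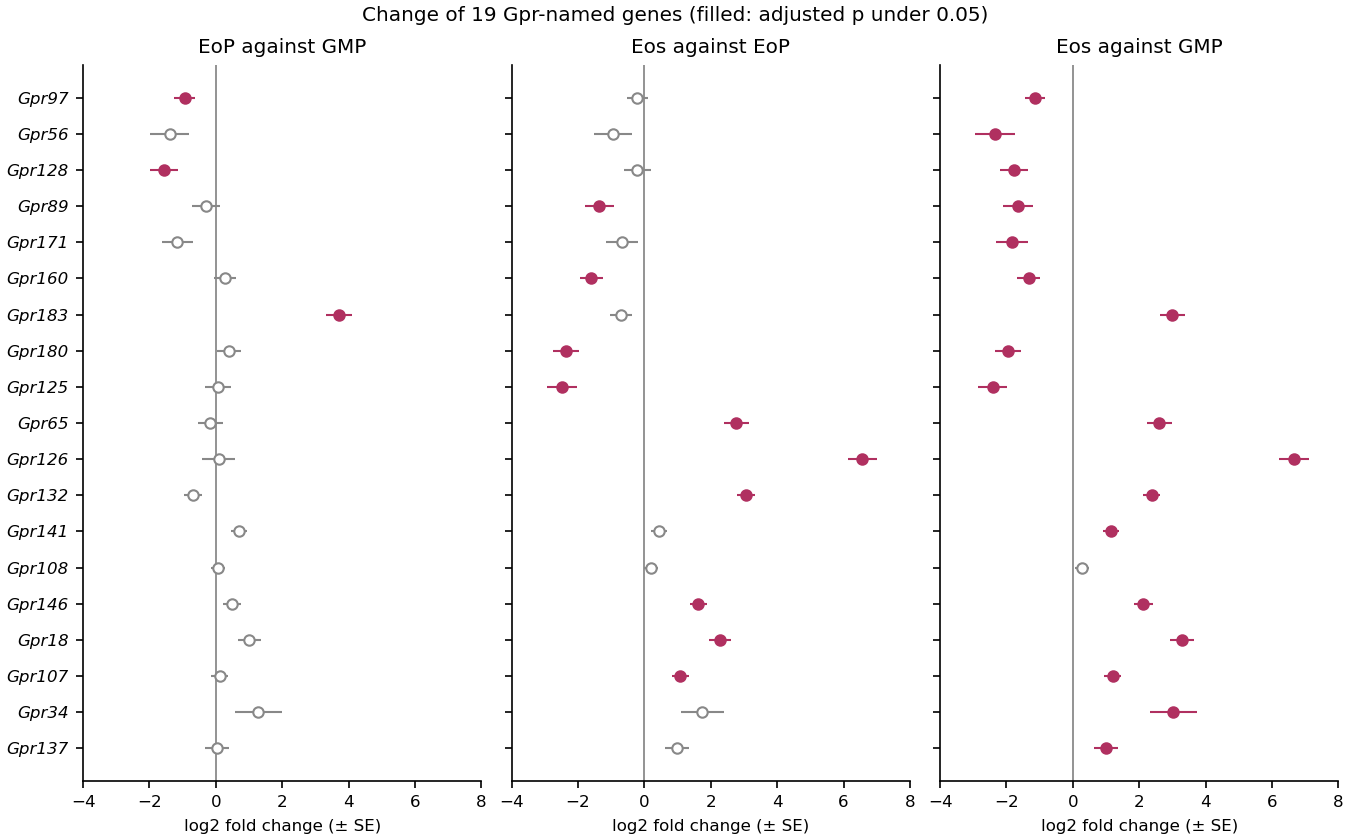
Log2 fold change with its SE (horizontal axis) of the same 19 genes (rows) in EoP against GMP, Eos against EoP and Eos against GMP, filled where the adjusted p was under 0.05. In EoP against GMP the filled points are Gpr183 (3.71) above 0 and Gpr97 (-0.94) and Gpr128 (-1.56) below, and Gpr126 lies farthest right in both comparisons with Eos (6.57 and 6.66).

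RNA that marks other cell types also differed between the stages. All 13 neutrophil genes measured of a list of 14 rose in Eos against EoP, and their summed level was 2340 and 865 CPM in GMP, 648 and 290 CPM in EoP and 42245 and 48400 CPM in Eos. Summed over 8 GMP and progenitor genes, the level was 42227 and 39505 CPM in GMP, 2584 and 3196 CPM in EoP and 14758 and 4973 CPM in Eos. The first Eos library, which had more of this RNA than the second, also had more Gpr97 (193 and 97.4 CPM), Gpr56 (25.4 and 5.85), Gpr160 (50.9 and 23.4) and Gpr89 (10.5 and 3.86). Of the cell types as labelled, the 4 eosinophil surface genes summed to 27.8 and 25.8 CPM in GMP, 1010 and 931 CPM in EoP and 4185 and 6541 CPM in Eos, and the 9 granule genes to 1217 and 293 CPM in GMP, 245186 and 195156 CPM in EoP and 13589 and 11829 CPM in Eos. Mast cell and basophil genes (8) were at 1330 and 1325 CPM in GMP, 1628 and 4528 CPM in EoP and 278 and 142 CPM in Eos. Called genes also rose in Eos against EoP (background 19.1% higher) in the lists for B cells (4 of 7, summed at 34.9 and 26.7 CPM in GMP, 19.6 and 30.2 in EoP and 128 and 55.1 in Eos), T and natural killer cells (4 of 8, at 749 and 580, 341 and 337, and 409 and 125 CPM), erythroid cells (5 of 7, at 13 and 21.3, 16.3 and 12.6, and 53.1 and 120 CPM) and monocytes, macrophages and dendritic cells (4 of 10, at 1434 and 1252, 156 and 215, and 425 and 502 CPM). Nkg7 alone held most of the T and natural killer cell sum, at 736 and 570 CPM in GMP, 341 and 335 in EoP and 398 and 114 in Eos. In the monocyte list 1 gene fell in Eos against EoP, and 7 of 10 fell in Eos against GMP. In the GMP and progenitor list 4 rose and 2 fell in Eos against EoP. The 10 genes of dissociation and immediate early response set libraries of 1 cell type apart, at 476 and 2478 CPM in GMP, 4526 and 36.3 CPM in EoP and 563 and 2884 CPM in Eos. No list gene measured was at 0 in every library. The part of other cells in the receptor levels was not tested.

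The signalling genes downstream of these receptors rose more often than they fell in Eos. Of 62 tested genes for G proteins, effectors, kinases, arrestins and RGS proteins, 9 rose and 14 fell in EoP against GMP (median log2 0.12; 14.5% and 22.6%, background 9.49% and 17.1%). In Eos against EoP 24 rose and 7 fell (0.72, or 0.63 at the bound; 38.7% and 11.3%, background 19.1% and 17.7%). In Eos against GMP 26 rose and 17 fell (0.32; 41.9% and 27.4%, background 22.7% and 31.8%), so the share that fell there lay near the background. Effectors accounted for 10 rises and 1 fall among 17 genes in Eos against EoP (58.8% and 5.88%). Pik3r5, a regulatory subunit of phosphoinositide kinase gamma, had 277 and 488 CPM in Eos and 55.0 and 52.7 CPM in EoP (log2 2.83 ± 0.29, adjusted p = 0.00014), and the catalytic subunit Pik3cg 510 and 827 CPM in Eos and 163 and 202 CPM in EoP (1.87 ± 0.28, adjusted p = 0.000947). The other regulatory subunit, Pik3r6, rose in EoP against GMP, with 65.3 and 70.6 CPM in EoP and 16.5 and 17.6 CPM in GMP (2.00 ± 0.26, adjusted p = 0.000874). Plcb3, a phospholipase C, had 81.0 and 101 CPM in Eos, above both EoP libraries (2.35 ± 0.25, adjusted p = 0.000145).

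Of the 7 receptor kinases and arrestins, which switch receptors off, 5 rose and 0 fell in Eos against EoP, where the background was 19.1% higher and 17.7% lower. Arrb1 had 228 and 351 CPM in Eos and 42.6 and 63.3 CPM in EoP (2.45 ± 0.29, adjusted p = 0.00027), and Arrb2 had 230 and 296 CPM in Eos and 92.3 and 97.7 CPM in EoP (1.47 ± 0.23, adjusted p = 0.00118). Grk6 was higher at each step, with 17.1 and 24.7 CPM in GMP, 56.8 and 63.2 CPM in EoP and 125 and 144 CPM in Eos (adjusted p = 0.0032 in EoP against GMP and 0.00461 in Eos against EoP). Among 13 alpha subunits, 3 rose and 4 fell in Eos against EoP (23.1% and 30.8%): Gnai2, which inhibits adenylyl cyclase, rose (0.87 ± 0.24, adjusted p = 0.0172), Gnaq, which acts on phospholipase C, rose (1.00 ± 0.25, adjusted p = 0.011), and Gnas, which raises cyclic AMP, fell (log2 -0.87 ± 0.25, adjusted p = 0.0229). Gnas was at 428 and 536 CPM in GMP, 1163 and 1045 CPM in EoP and 538 and 667 CPM in Eos. Of the 13 beta and gamma subunits 1 rose and 1 fell (7.69% each, under the background), with Gng2 at 228 and 329 CPM in Eos and 45.0 and 51.2 CPM in EoP (2.53 ± 0.25, adjusted p = 0.000118). Of the 12 RGS proteins 5 rose and 1 fell (41.7% and 8.33%); Rgs14 rose (2.45 ± 0.30, adjusted p = 0.000294) and Rgs12 fell (log2 -2.63 ± 0.34, adjusted p = 0.000437).

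**Figure D4:**
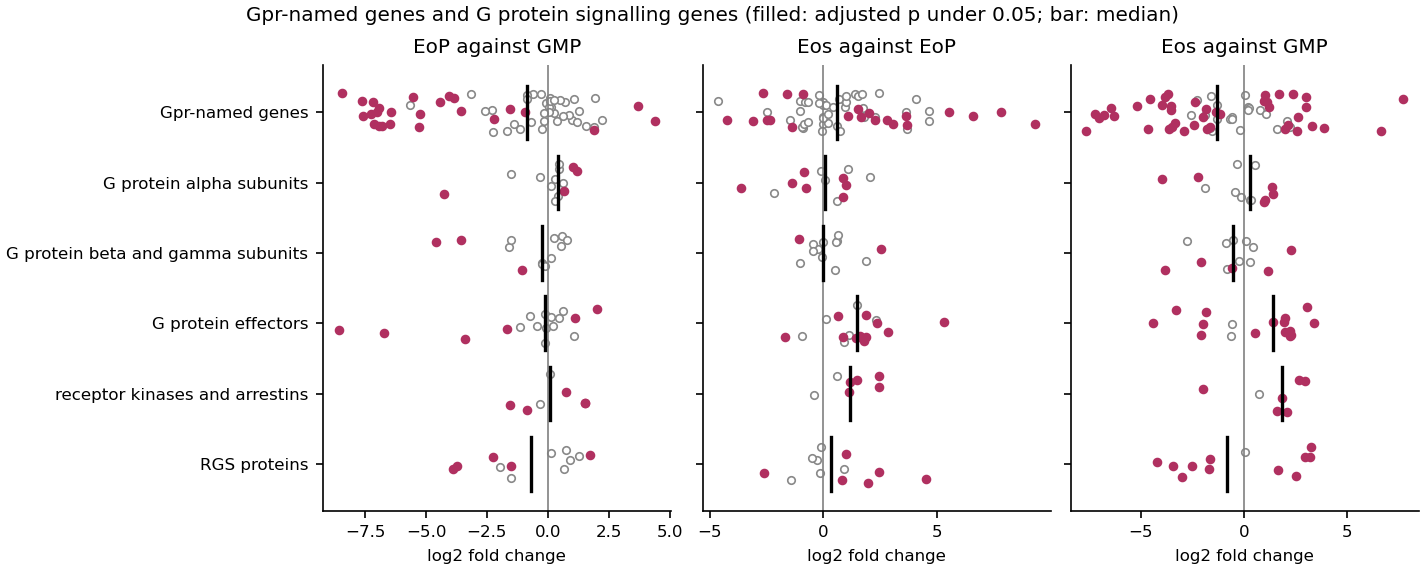
Log2 fold change (horizontal axis) of each tested gene in 3 comparisons, for the 63 Gpr-named genes and 5 lists of G protein signalling genes, filled where the adjusted p was under 0.05, with a black bar at the median; the vertical spread within a row has no meaning. Medians of effectors (1.47) and of kinases and arrestins (1.17) lie right of 0 in Eos against EoP, and values of genes with no count in a cell type, far from 0, depend on the fit's prior count.

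The H3K4me3 peak lists, which are the authors' own and come from single libraries, were used for presence of a promoter peak and for the place and fold enrichment of peaks within a list. A promoter peak was listed for 40 of the 89 genes in GMP (background 56.6% of all genes), for 26 in EoP (background 48.3%) and for 35 in Eos (background 50.6%). The lists differ in length, with 30641 peaks in GMP, 19816 in EoP and 33846 in Eos, so absence from the EoP list does not show loss of the mark. With each list held to its 19816 top-ranked peaks, the counts were 34 in GMP, 26 in EoP and 26 in Eos. All 3 lists held a peak for 25 genes (28.1%, against 46.9% of all genes), and none did for 45 (50.6%, against 42.2%). Of the rest, 8 had a peak in the GMP list only (9.0%, against 6.0% of all genes) and 6 in those of GMP and Eos (6.7%, against 2.5%). A further 4 had a peak in the Eos list only (4.5%, against 1.1%), and Gpr128 in those of GMP and EoP (1.1%, against 1.2%). The 4 in the Eos list only were Gpr18, Gpr55, Gpr84 and Gpr149. The first 3 had RNA in Eos, and Gpr149 had none there. Gpr84 averaged 9.04 CPM in GMP, without a listed promoter peak, and 9.42 CPM in Eos. Its Eos peak was weak, with a fold enrichment of 2.6 and a −log10 q of 0.775, against 6.36 for Gpr18, 2.86 for Gpr55 and 3.48 for Gpr149. The lists reach down to a −log10 q of 0.701 in GMP and 0.705 in EoP and Eos, so a listed peak can be weak. Counts fell to 18 in GMP, 8 in EoP and 10 in Eos when only peaks with a −log10 q of at least 10 were taken.

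Receptors with more RNA usually had a peak in the same cell type. The median was 0.363 RPKM for genes with a promoter peak and 0.164 RPKM for those without in GMP, 1.95 and 0.00954 RPKM in EoP, and 1.18 and 0.0219 RPKM in Eos. Of the 19 genes plotted by library, which were chosen in part for their level, 15 had a peak in all 3 lists (46.9% of all genes, at any level, did). The reverse did not hold: 7 genes with a peak in all 3 lists, among them Gpr3, Gpr19, Gpr45, Gpr62, Gpr135 and Gpr155, averaged under 1 RPKM in each cell type. Gpr45 had the highest fold enrichment of any of these genes in the GMP list, 13.4, and Gpr19 shares its peaks with 2810454H06Rik. No share over all genes of like RNA level is set beside the 15 or the 7 genes. Neither count is therefore read as a trait of these receptors.

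Gpr126 had a promoter peak in all 3 lists, though its RNA was high in Eos alone. In the GMP list the peak at chr10:14544958-14545683 was 726 bases long with a fold enrichment of 4.95, in the EoP list the peak at chr10:14545135-14545640 was 506 bases long at 6.21, and in the Eos list the peak at chr10:14544762-14545653 was 892 bases long at 5.25. The 300 bases searched, which are the 250 printed above and the 50 after the start, lay wholly in the GMP and Eos peaks and over 152 bases in the EoP peak, while RNA was at most 2.06 CPM in GMP and EoP. Gpr65, with 3 CpG in its window, had peaks downstream of the start, with the highest summit 503 bases into the gene in GMP, 63 in EoP and 347 in Eos. Gpr183 had peaks in all 3 lists although its RNA was at 5.2 and 9.24 CPM in GMP. Gpr18 had its only promoter peak in the Eos list, at chr14:121915610-121915885 with a fold enrichment of 6.28, and its RNA was highest in Eos. Gpr34 had a peak in the GMP list with its summit 930 bases inside the gene and one in the Eos list 271 bases before the start. Over the 24 genes with a window and a peak in all 3 lists, the median was 12.5 CpG (2 to 38), against 6.5 for the 10 with a peak in 1 or 2 lists and 7 for the 30 with none (0 to 42), and the medians over 64 Gpr-named and all windows were 8 and 7. The window of a gene lay at or near a listed start, which need not be the start with the peak. The windows of Gpr19 (chr6:134887736-134888035) and Gpr146 (chr5:139389654-139389953), for example, held no base of a listed peak.

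**Figure D5:**
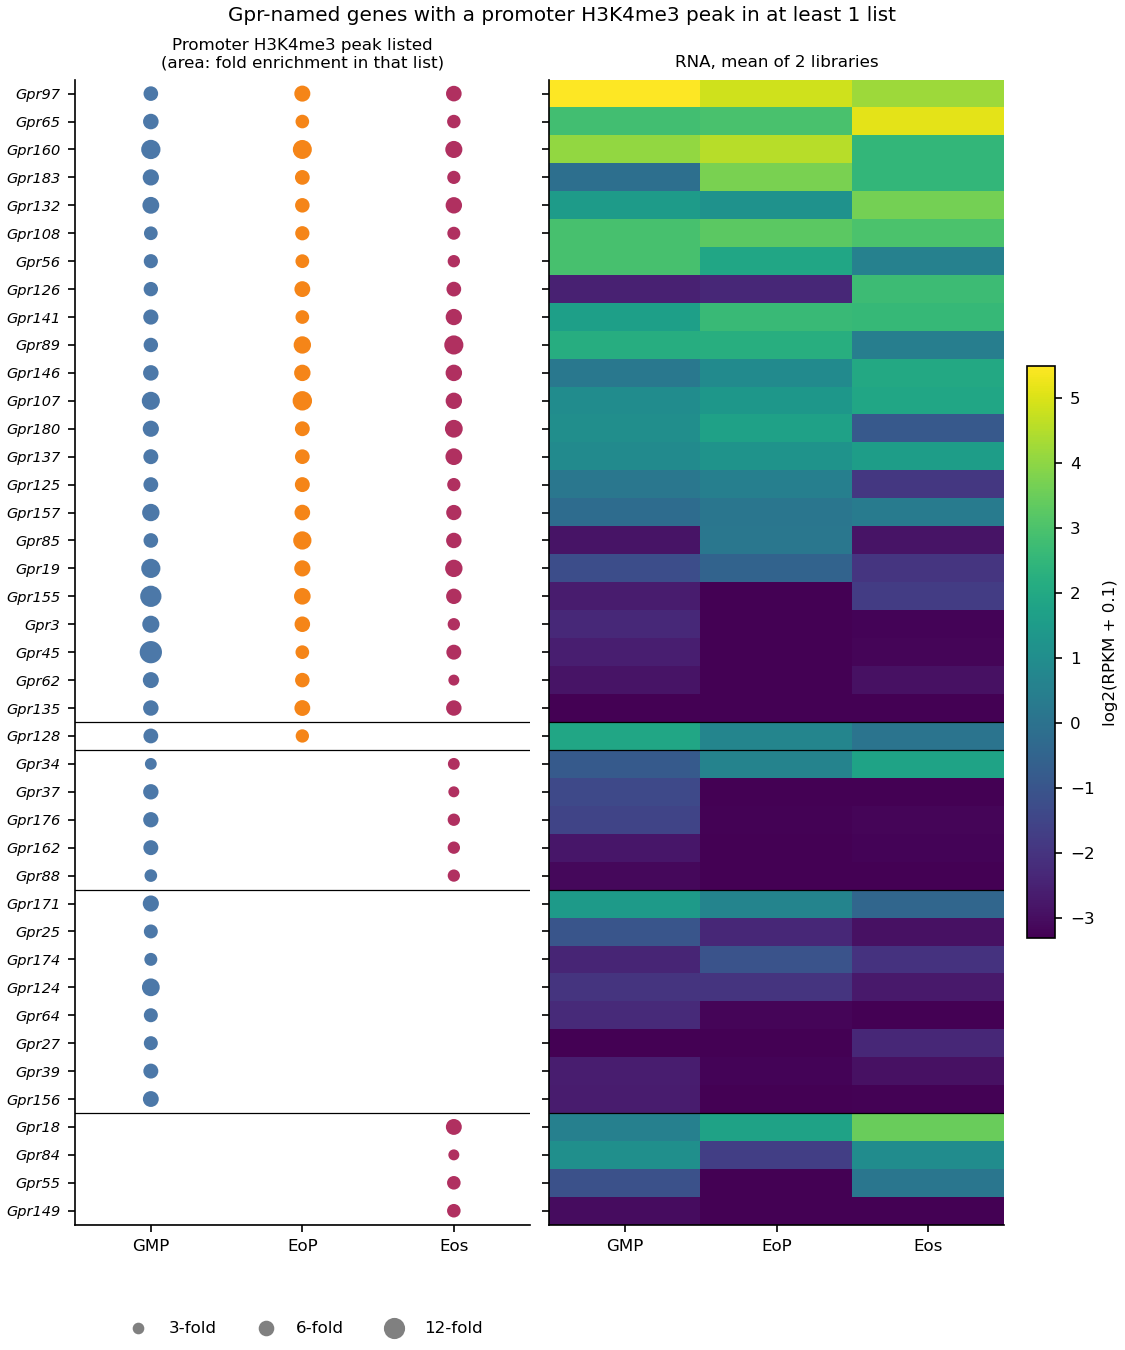
Gpr-named genes (41 shown) with a promoter H3K4me3 peak in at least 1 list (rows, grouped by the lists that hold a peak, lines between groups), with a dot for each listed peak in GMP, EoP and Eos whose area is its fold enrichment in that list (left), and mean RNA of 2 libraries as log2(RPKM + 0.1) in colour (right). The top block shows 23 genes with a peak in all 3 lists, among them Gpr126, dark in GMP and EoP and bright in Eos, and the bottom block holds the 4 genes with a peak in the Eos list only.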

How the data were processed

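The authors' RNA tables hold 1 line for each RefSeq transcript, with an estimated count (whole numbers) and RPKM, per the file headers; neither the counting tool nor its strand use is stated in the labels. The submitters' processing notes name mm10, Bowtie 1.0.0 and STAR 2.4.0c without roles. Lines were summed per gene symbol to 23471 genes. The members and lists were chosen with earlier results of these data known.

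Counts were tested in R 4.3.3 with edgeR 4.0.16 (quasi-likelihood test, default filter, TMM factors, all 6 libraries in 1 fit, no term but cell type, 3 residual degrees of freedom) and adjusted by the Benjamini-Hochberg method over 14324 genes. The script was tested on simulated counts. Genes were given with every library value where they averaged at least 10 CPM in a cell type and were called with libraries that did not overlap, or were among the 5 highest in RPKM; pathway genes were up to 4 called per list. Other genes named were chosen after their values were seen. A few genes that the rule names are counted but not reported here by name. Floors (3 counts over a group) and intervals cover counting error only.

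Each H3K4me3 library has a peak list made by the authors, with summit pileup signal, −log10 q and fold enrichment per the file headers. Peak caller, control and read depth are unknown here. A label joining several genes was split at its commas. Promoter windows came from RefSeq (GRCm38.p6) and were matched by transcript accession. Alternatives were other scalings, filters and tests (DESeq2 1.42.0; limma 3.58.1 on log2 RPKM), ways of summing transcripts, the replicate block, each library left out, and peak thresholds.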

Additional observations from a re-analysis of the deposited data

How the results depend on the processing

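The counts of called Gpr-named genes given here follow the order of higher and lower. In EoP against GMP (3 and 22), the rises were 7 with no filter, and 5 with log2(RPKM + 0.1), with unfiltered log2(RPKM + 0.5), with the top transcript only and with only the compared groups; the falls were 3 over genes of at least 50 counts in 2 libraries, 1 with log2(RPKM + 0.5) and with log2(RPKM + 0.1) over the 23 genes that passed the RPKM filter, and 19 with unfiltered log2(RPKM + 0.5) over 88 genes. In Eos against EoP (13 and 8), the rises were 7 with either pseudocount on RPKM and the falls 5 with the top transcript only. In Eos against GMP (16 and 26), the rises were 10 by library size alone; the falls were 16 with DESeq2, 9 over genes of at least 50 counts in 2 libraries, 8 with either pseudocount on RPKM and 17 with the top transcript only. With a library left out in turn, rises ranged from 3 to 6, 9 to 17 and 13 to 17 in the comparisons as ordered here, and falls from 3 to 31, 5 to 11 and 7 to 27. No called change of a named gene changed direction. Of 60 named log2 fold changes, 16 changed sign under at least 1 alternative, none of them called with either sign; among them Gpr34 in EoP against GMP was at 1.28 and -0.14 without the second EoP library, and Gpr146 at 0.49 and -0.37 with the top transcript only. Of 34 called changes of single named genes, 22 were called with every library left out, and 20 under every alternative.

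The replicate numbers did not pair the samples: deviations of same-numbered libraries correlated at -0.0995 (EoP and GMP), -0.0849 (Eos and EoP) and 0.0194 (Eos and GMP). With the number as a replicate block, the falls in EoP against GMP were 14, and the counts were 12 and 7 in Eos against EoP and 16 and 18 in Eos against GMP. Promoter peaks with a −log10 q of at least 10 were listed for 18 genes in GMP, 8 in EoP and 10 in Eos. Taking only peaks labelled with 1 gene gave 37, 23 and 32, and a fold enrichment of at least 4 gave 37, 26 and 26; both were chosen after seeing the data. With 2 libraries per cell type and 1 per peak list, changes at low counts are the least certain.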
